A study of Homo sapiens with 7 samples.

Results

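The genes described here are the 5 subunits of the transcription factor NF-kB (NFKB1, NFKB2, REL, RELA and RELB), 4 of their inhibitors (NFKBIA, NFKBIB, NFKBIE and NFKBIZ) and TNFAIP3, a ubiquitin-editing enzyme that restrains the pathway. They were chosen by name, with earlier results of these data known. All probe sets that the platform annotation gives to a single one of them were read. This made 22 probe sets for 10 genes, out of 19775 genes on the array. The cells were HT1080, an established human fibrosarcoma line grown in MEM with fetal bovine serum, and the study asked how pycnogenol (a pine bark extract), single plant polyphenols and resveratrol alter gene expression in them. Each of the 7 cultures was measured on 1 array, so no difference could be tested and every value describes single arrays. A day after plating the medium was changed, and the treated cells were then incubated for 2 h.

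The dose of catechin was 11.25 ng/ml, epicatechin and taxifolin were both used at 6.25 ng/ml, and resveratrol was used at 2195 ng/ml. A further culture held 5% control serum and another 5% pycnogenol-positive serum, which per the labels came from patients treated with the extract. The remaining culture received no treatment; the labels give it no time, medium change or solvent, so a difference from it can include those steps. The labels do not say how many serum donors there were, nor whether the control serum came from the same people before treatment. Values are MAS5 signals, a linear brightness per probe set, and differences are given as log2 signal of the first array minus that of the second, after signals under 34.9 were raised to that floor. Signals of different probe sets cannot rank amounts of transcript, so levels are compared between arrays only. Signal was still used to choose the brightest probe set of each gene and to leave out genes of low signal.

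NF-kB subunits bind DNA as pairs and share the Rel homology domain. RELA, RELB and REL carry a transactivation domain, while the proteins encoded by NFKB1 and NFKB2 are precursors whose shorter products lack one. In resting cells the inhibitors encoded by NFKBIA, NFKBIB and NFKBIE hold the pairs in the cytoplasm through their ankyrin repeats, until an activated kinase marks the inhibitor for destruction. Freed NF-kB then switches on cytokine genes and also genes of its own brakes, above all NFKBIA and TNFAIP3, whose transcripts can change within hours and are often read as a gauge of the pathway. NFKBIZ encodes an inducible nuclear member of the inhibitor family that acts on selected target genes. Transcript signals do not report the location or activity of the proteins.

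Promoter sequence is shown because several of these genes are themselves targets of NF-kB. RefSeq promoter windows on GRCh38.p14 were matched by symbol for 8 of the 10 genes, and RELB and NFKBIE had no entry. The 250 bases before each start site were searched on both strands for the kappa B consensus, the 10-base motif that NF-kB binds, and overlapping matches were joined. A match was found for 7 of the 8 genes, with RELA the exception, and for 9 of their 14 windows, since some genes have several start sites. Over all genes with a window, 11.8% held a match, and over all windows 9.96% did. These 8 genes had 14 windows, where all 27305 genes had 35116, so the members had more windows per gene to hold a match. The exact letters GGGAATTTCC, read on either strand, stood in a window of NFKB1, REL, NFKBIA, NFKBIB and NFKBIZ, and in 0.142% of all 35116 windows. Those letters were singled out after the sequences had been read. A match describes these windows and was not tested for binding. The stretches with flanking bases are listed 5′ to 3′ on the strand of the gene, with the match in capitals.
NFKB1, chr4:102501300-102501329, plus strand: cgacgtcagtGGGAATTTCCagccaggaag
REL, chr2:60881517-60881547, plus strand: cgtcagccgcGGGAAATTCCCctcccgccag
NFKB2, chr10:102394461-102394491, plus strand: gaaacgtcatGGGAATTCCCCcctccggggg
NFKB2, chr10:102395674-102395703, plus strand: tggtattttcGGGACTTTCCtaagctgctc
NFKBIB, chr19:38899931-38899961, plus strand: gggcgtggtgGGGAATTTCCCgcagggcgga
NFKBIZ, chr3:101827757-101827786, plus strand: tttttggtctGGGAATTTCCagtgtgcaga

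NFKB2 held 4 such stretches in 2 of its 3 windows, of which the 2 that were shown differ in their inner bases. The full 250 bases are given for the feedback inhibitors NFKBIA and TNFAIP3. That of NFKBIA held 1 match on the opposite strand, 81 to 72 bases before the start site, and that of TNFAIP3 held 2 matches 2 bases apart.
NFKBIA, chr14:35404750-35404999, minus strand: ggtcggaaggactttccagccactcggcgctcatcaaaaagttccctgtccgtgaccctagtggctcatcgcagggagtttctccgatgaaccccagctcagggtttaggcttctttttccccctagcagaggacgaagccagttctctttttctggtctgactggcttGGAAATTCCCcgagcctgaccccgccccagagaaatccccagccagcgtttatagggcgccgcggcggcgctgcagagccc
TNFAIP3, chr6:137867009-137867258, plus strand: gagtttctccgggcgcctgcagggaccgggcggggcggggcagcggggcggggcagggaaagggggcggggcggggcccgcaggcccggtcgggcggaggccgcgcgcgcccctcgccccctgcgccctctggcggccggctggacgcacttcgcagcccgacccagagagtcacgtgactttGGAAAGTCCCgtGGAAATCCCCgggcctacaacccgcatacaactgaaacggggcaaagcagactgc

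Genes were compared where the mean log2 signal of their brightest probe set was at or above 8.07, a signal of 269, which left 9888 genes and 9 of the 10 members. NFKB2 lay under that filter. The filter was set on the mean, so single arrays of a compared gene could read under 269. Without detection calls such signals were not shown to be above background. Over the compared genes the standard deviation of the log2 differences ran from 0.235 to 0.282 in the 4 compound comparisons, and was 0.337 for control serum against untreated and 0.277 between the serum arrays. Of 8 mesenchymal markers 6 passed the filter, among them VIM and FN1, and NT5E and S100A4 did not. KRT8 and KRT18 were the 2 of 5 epithelial markers above it, HBB the 1 of 7 blood cell markers, and none of 4 endothelial markers reached it. The summed blood marker signal was 715 untreated, 578 with control serum and 852 with pycnogenol serum. HBB read 227, 382 and 522 in the same order, and so did not share the low control serum value. CD3D, which was under the filter, read 211, 51.1 and 228. The part of such signals in the results was not tested. In a bulk sample fewer cells of a kind and less RNA per cell cannot be told apart.

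Among the subunits, NFKB1 varied least and the other subunits differed from array to array without a shared order. NFKB1, which encodes the precursor of the p50 subunit, read 2489.9 in the untreated culture, 2326 with catechin, 2070.4 with epicatechin, 2422 with taxifolin, 2452 with resveratrol, 2379 with control serum and 2391 with pycnogenol serum. The epicatechin array was lowest, at -0.27 from untreated, and the other 6 lay within a narrow band. The whole spread of 0.27 was the smallest among the 9 members above the filter, where the median gene on the array spanned 0.47.

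RELA, the main transactivating subunit, read 2375 untreated, 2248 with catechin, 2566 with epicatechin, 2216 with taxifolin, 1797 with resveratrol, 2013 with control serum and 2723 with pycnogenol serum. The resveratrol array was lowest and the pycnogenol serum array highest, so that resveratrol lay at -0.40 from untreated and pycnogenol serum at 0.44 from control serum. The other RELA probe set, which also passed the filter, read 251 and 390.1 on the control and pycnogenol serum arrays, against 437 untreated and 576 with taxifolin. It gave 0.64 between the serum arrays and -0.80 for control serum against untreated, but 0.11 for resveratrol, opposite in sign to the first. The higher RELA signal with pycnogenol than with control serum was therefore read by both probe sets, and the low resveratrol signal by 1 of them.

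RELB, the partner of the NFKB2 product in the noncanonical branch, has 1 probe set. It read 439 untreated, 359.8 with catechin, 336 with epicatechin, 319 with taxifolin, 436 with resveratrol, 342 with control serum and 424 with pycnogenol serum. The untreated, resveratrol and pycnogenol serum arrays formed the upper end, and taxifolin the lower end at -0.46. With resveratrol the difference from untreated was -0.012, and it turned to 0.0051 under quantile normalization.

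REL, a subunit best known from lymphocytes, has 5 probe sets, of which 2 passed the filter. The brightest read 472 untreated, 523 with catechin, 432 with epicatechin, 359.6 with taxifolin, 366 with resveratrol, 529 with control serum and 463 with pycnogenol serum. The next read 338, 349, 395, 237, 404, 358 and 508 in the same order. Taxifolin was lowest on both, at -0.39 and -0.51 from untreated. For pycnogenol against control serum they disagreed, at -0.19 and 0.51, and the 3 REL probe sets under the filter gave 0.55, 0.57 and 0.84. The size of the 0.84 depends on the floor, since that probe set read 7.97 with control serum. The probe set at 0.55, just under the filter, read 154 with control serum, its lowest value, against 387 untreated.

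NFKB2, which encodes the precursor of the p52 subunit, was dim on all 3 of its probe sets. The brightest read 92.2 untreated, 117 with catechin, 166 with epicatechin, 188 with taxifolin, 134 with resveratrol, 129.7 with control serum and 263 with pycnogenol serum. Untreated was lowest and pycnogenol serum highest, with 1.03 for taxifolin against untreated and 1.02 between the serum arrays. None of these signals reached the filter, and without detection calls they were not shown to be above background, so the size is uncertain. The other probe sets gave 0.24 and -1.11 for taxifolin, the latter with 4 of 7 arrays at the floor. Between the serum arrays all 3 lay above 0, at 1.02, 0.37 and 0.72.

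NFKB2 was the member whose brightest signal spanned at least 1 on the log2 scale, at 1.51. Among the 9887 genes under the filter, where NFKB2 lay, 61.8% spanned at least 1, so such a span was common there. Among the 9 members above the filter the span ran from 0.27 to 0.91, and 6.93% of the compared genes spanned at least 1. Profiles over the 7 arrays were compared with NFKB2 only for genes above the filter. Among these, SLC35E4, CSRNP1 and RAD9A lay nearest. Their root mean square differences were 0.23, 0.24 and 0.24 (log2) after each gene was centred on its mean. SLC35E4 read 868.05 untreated, 886 with control serum and 1740.2 with pycnogenol serum. In the same order CSRNP1 read 330.2, 625 and 789, and RAD9A 336, 443 and 577.

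**Figure D1:**
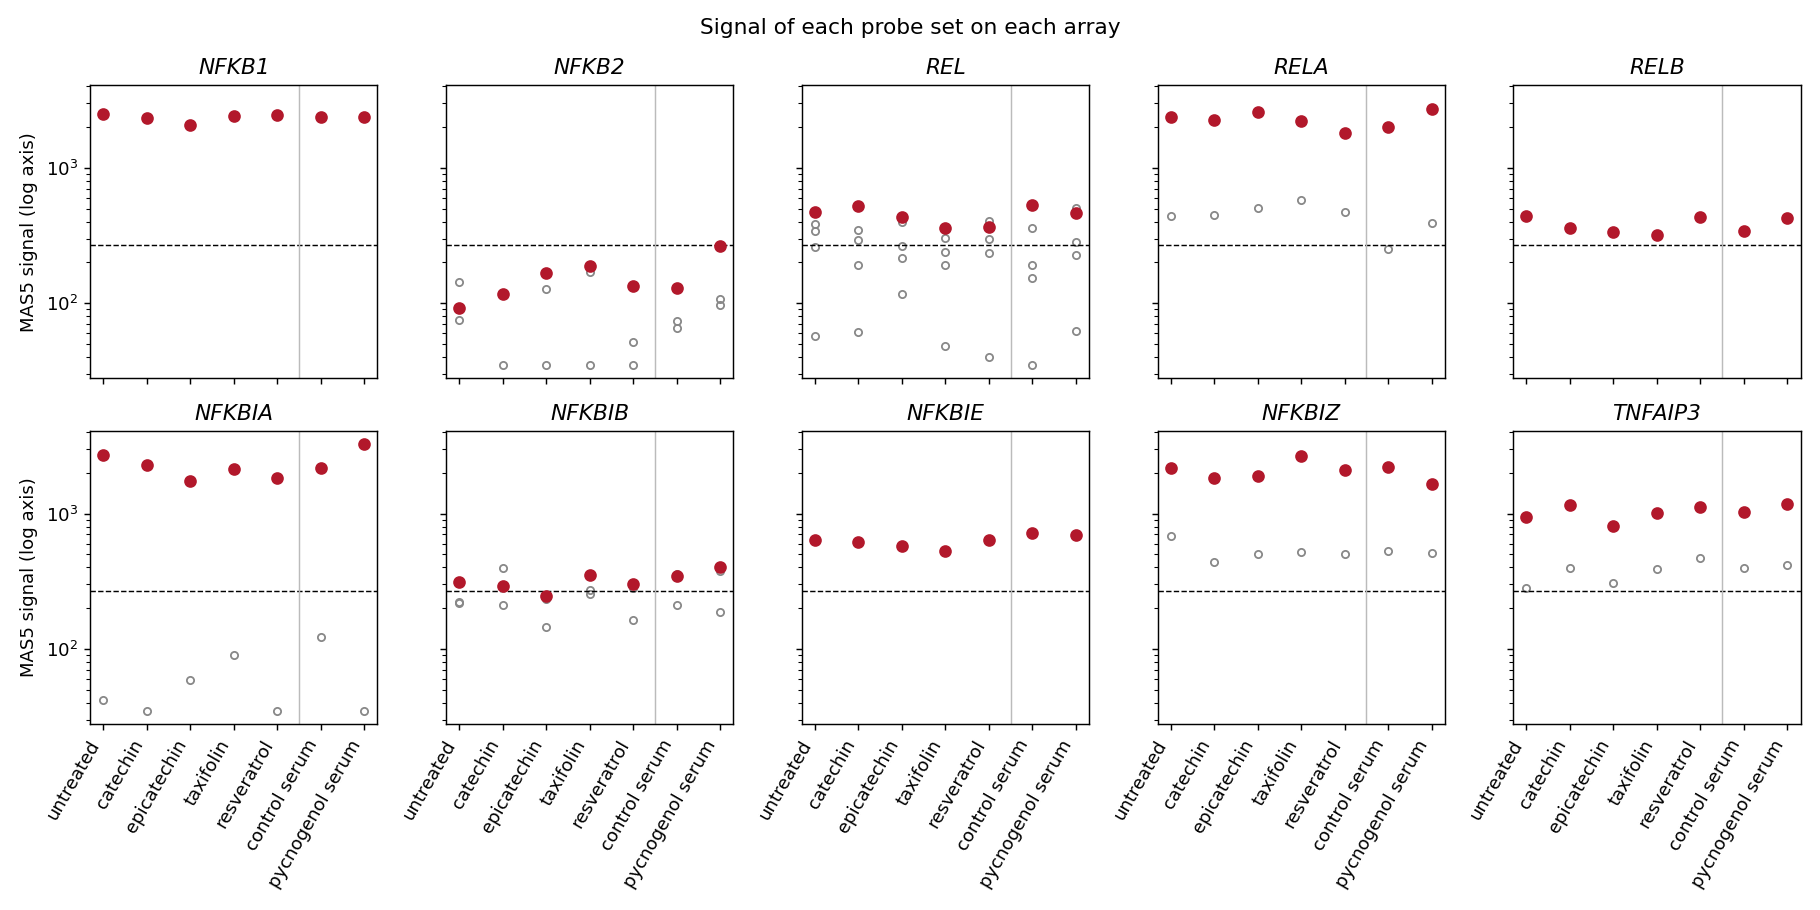
MAS5 signal on a log axis for each probe set (points) on each of the 7 arrays, with 1 panel per gene; filled red points mark the brightest probe set, open grey points the others, and the dashed line the filter at 269. NFKBIA is highest with pycnogenol serum at 3265, NFKB1 stays between 2070.4 and 2489.9, and NFKB2 lies under the line on every array.

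Among the inhibitors NFKBIA showed the largest span, lowest with epicatechin and highest with pycnogenol serum. NFKBIA, whose product is resynthesised after NF-kB activation and ends the response, read 2725 untreated, 2299 with catechin, 1735 with epicatechin, 2115 with taxifolin, 1828 with resveratrol, 2162 with control serum and 3265 with pycnogenol serum. The untreated and pycnogenol serum arrays lay above the other 5. From untreated, catechin differed by -0.25, epicatechin by -0.65, taxifolin by -0.37, resveratrol by -0.58, control serum by -0.33 and pycnogenol serum by 0.26. These differences share the untreated array. Pycnogenol serum stood at 0.59 from control serum.

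NFKBIA has another probe set, whose signals ran from 14.8 to 123 and lay at the floor on 3 of 7 arrays. It gave -1.82 between the serum arrays, and the mean of both probe sets turned the NFKBIA difference there to -0.61. That mean also gave 0.37 for taxifolin and 0.61 for control serum against untreated, and left epicatechin at -0.083, far from the -0.65 of the bright probe set. The dim probe set was under the filter on every array, whereas the bright one was well over it on every array.

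NFKBIB, an inhibitor degraded more slowly than the NFKBIA product, read 309 untreated, 289.8 with catechin, 247 with epicatechin, 348 with taxifolin, 302 with resveratrol, 348 with control serum and 400.1 with pycnogenol serum on an _x_at probe set, which can bind related transcripts. Epicatechin was lowest at -0.32 and pycnogenol serum highest at 0.37 from untreated. A dimmer probe set had the same lowest and highest arrays, at 145 and 373, and gave 0.69 for control serum against untreated. The last, also _x_at, went another way, with catechin highest at 398 and resveratrol lowest at 163.

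NFKBIE, another cytoplasmic inhibitor, read 640.4 untreated, 614 with catechin, 580.1 with epicatechin, 527 with taxifolin, 636 with resveratrol, 717 with control serum and 698 with pycnogenol serum on its single probe set. Both serum arrays lay above all 5 arrays without test serum, the one member above the filter of which this held, while NFKBIB joined it under quantile normalization and NFKBIB and NFKB1 did so with median centring. Of all compared genes 13.5% had both serum arrays above the other 5 and 16.1% below, and 0 of 9 members lay below on the brightest probe set. The share of members was thus near the background. Both serum arrays lay above for 13.5% of all genes under quantile normalization as well, and for 26.4% with median centring. Taxifolin was the lowest array for NFKBIE, at -0.28 from untreated.

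NFKBIZ read 2173 untreated, 1829 with catechin, 1901 with epicatechin, 2679 with taxifolin, 2087 with resveratrol, 2220.1 with control serum and 1644 with pycnogenol serum. Taxifolin was highest, at 0.302 from untreated, and pycnogenol serum lowest, at -0.43 from control serum. The other NFKBIZ probe set above the filter was highest in the untreated culture at 683 and ran from 436 to 528 elsewhere. On it taxifolin lay at -0.40 from untreated and pycnogenol serum at -0.049 from control serum, so neither end of the NFKBIZ range was shared by both probe sets.

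TNFAIP3 read 947 untreated, 1152 with catechin, 809 with epicatechin, 1003 with taxifolin, 1127 with resveratrol, 1032 with control serum and 1175 with pycnogenol serum. Epicatechin was lowest and pycnogenol serum highest, 0.54 apart. The other probe set was lowest untreated at 282 and highest with resveratrol at 465. Both gave a higher signal than untreated with catechin, 0.28 and 0.49, with taxifolin, 0.083 and 0.47, with resveratrol, 0.25 and 0.72, and with control serum, 0.12 and 0.49. With epicatechin they differed in sign, at -0.23 and 0.12. Pycnogenol against control serum gave 0.19 and 0.071.

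**Figure D2:**
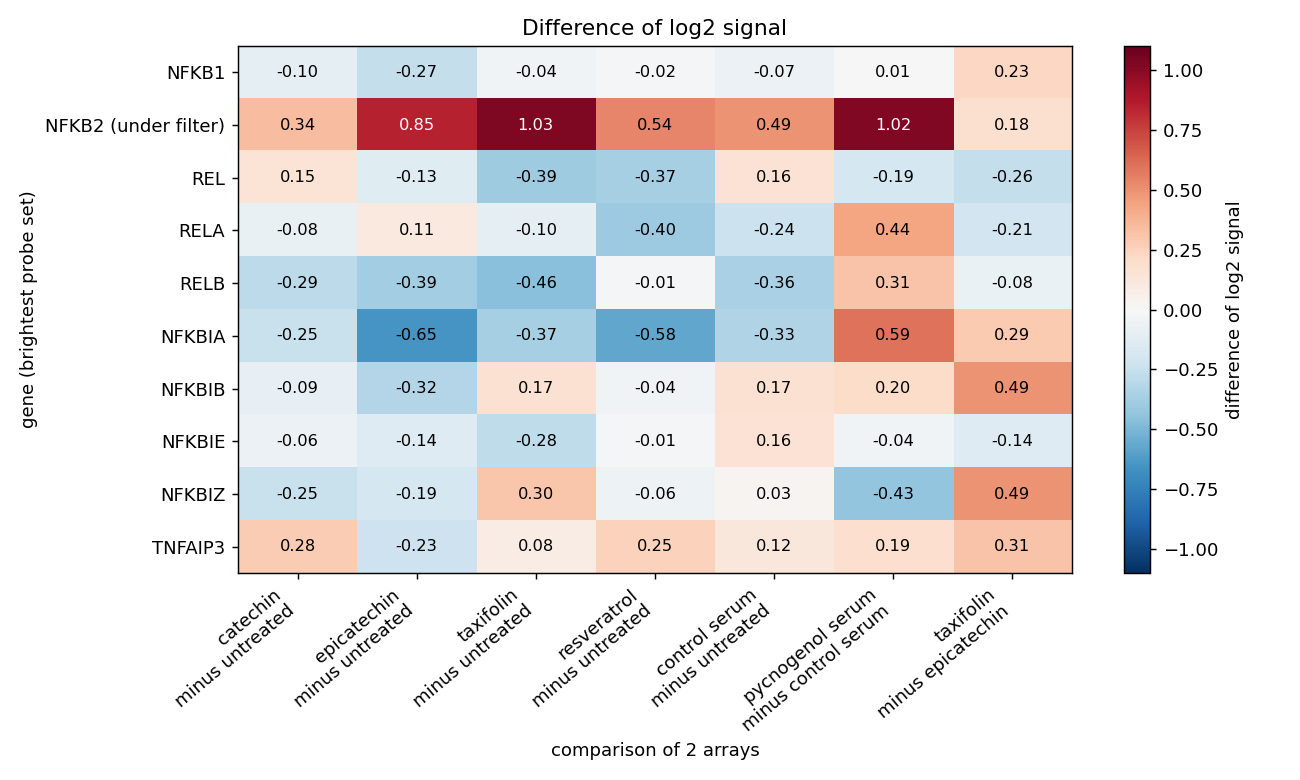
Difference of log2 signal for the brightest probe set of each gene (rows) in 7 comparisons of 2 arrays (columns); red is higher and blue lower in the array named first, and each cell prints its value. NFKBIA runs from -0.65 with epicatechin to 0.59 between the serum arrays, and the values past 1 belong to NFKB2, which is under the signal filter.

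In the comparisons as a whole, 0 of the 9 members above the filter differed by 2-fold or more in any of the 7 pairs of arrays. Over all compared genes the share past 2-fold was 0.455% with catechin, 0.314% with epicatechin, 0.465% with taxifolin and 0.728% with resveratrol against untreated. It was 1.2% for control serum against untreated, 0.536% for pycnogenol against control serum and 0.324% for taxifolin against epicatechin. At such shares 0 of 9 genes is near the background. At 1.5-fold, NFKBIA was lower with epicatechin, where 1.33% of genes were lower by as much, and higher with pycnogenol than with control serum, where 1.9% were. No member reached 1.5-fold in the other 5 comparisons, where the share of all genes that did was 3.55% with catechin, 3.3% with taxifolin, 4.46% with resveratrol, 7.83% with control serum and 3.47% for taxifolin against epicatechin. With 9 members, 0 or 1 at such shares is near the background as well. With median centring NFKBIA stood at -0.58 with epicatechin and 0.54 between the serum arrays, both under 1.5-fold, and at -0.67 with resveratrol, past it. The medians of all genes were then 0.11, -0.046 and -0.066 in the same order.

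With the compounds most members read a little lower than in the untreated culture. Catechin had 7 of 9 members below 0 with a median of -0.094, and the lowest was RELB at -0.29. Epicatechin had 8 of 9 below 0 with a median of -0.23, led by NFKBIA, RELB and NFKBIB, with RELA at 0.11 the exception. Taxifolin had 6 of 9 below 0 with a median of -0.10, with RELB lowest and NFKBIZ highest. Resveratrol had 8 of 9 below 0 with a median of -0.036, with NFKBIA and RELA lowest and TNFAIP3 at 0.25 the exception, although 3 of the 8 values (NFKB1, RELB and NFKBIE) lay between -0.022 and -0.011 and changed sign under quantile normalization. Over all genes 42.4%, 42.7%, 42.8% and 45.2% lay below 0 in the same order, with medians of 0.035, 0.032, 0.032 and 0.025. With median centring the counts below 0 were 6, 8, 5 and 8 of 9. The medians of all genes were then 0.10, 0.11, 0.089 and -0.066, so with resveratrol all genes also shifted below 0, beside a member median of -0.13. The member medians stayed below 0 with median centring and under quantile normalization. All 4 comparisons share the untreated array, and when the reference was the average of the 3 remaining compound arrays the medians were 0.051 for catechin, -0.19 for epicatechin, 0.023 for taxifolin and 0.045 for resveratrol.

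**Figure D3:**
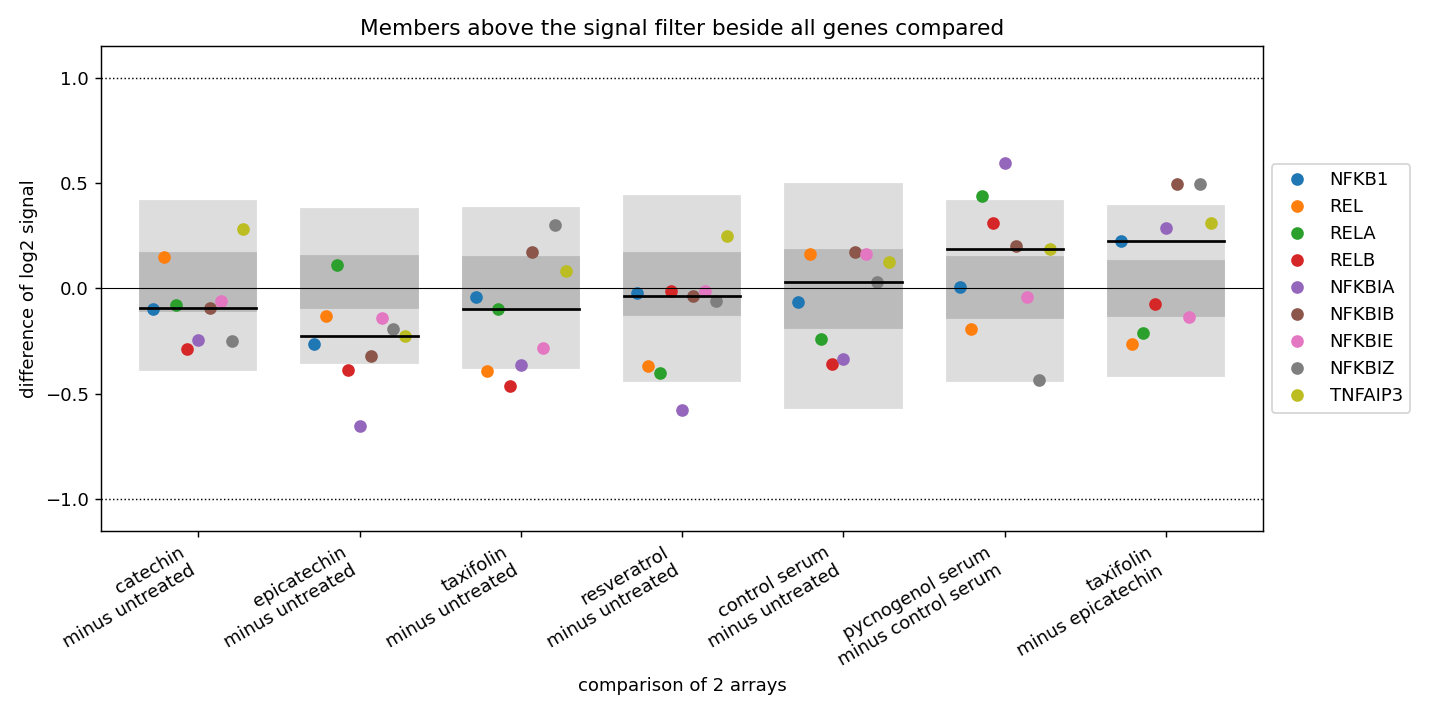
Differences of log2 signal of the 9 members above the filter (coloured points) in each comparison, with their median as a black bar; the dark and light grey boxes run from the 25th to the 75th and from the 5th to the 95th percentile of all 9888 genes, and dotted lines mark 2-fold. The member median is lowest with epicatechin at -0.23 and above 0 between the serum arrays at 0.19, and no point reaches a dotted line.

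Epicatechin and taxifolin were the compounds given at the same concentration, 6.25 ng/ml, and for the same 2 h. Both are flavonoids with the same ring skeleton, and taxifolin carries a ketone on the central ring that epicatechin lacks. In this single pair the members had a median difference of 0.23 for taxifolin minus epicatechin, with 5 of 9 above 0, where the median of all genes was 0.00066 and 50.1% lay above 0. NFKBIZ and NFKBIB each stood at 0.49, TNFAIP3 at 0.31 and NFKBIA at 0.29, while REL lay at -0.26 and RELA at -0.21. Read without probe sets ending in _x_at and _s_at, for which the filter was reset to the median of the remaining genes, a signal of 153, the set median was -0.077 over NFKB1, REL, RELB, NFKBIB and NFKBIE. The NFKBIB probe set of that reading was under the filter of 269. Without replicates no interval can be given for these differences. Catechin, the stereoisomer of epicatechin, was given at 11.25 ng/ml, so its values stand beside those of epicatechin without a comparison: NFKBIA read 2299 with catechin and 1735 with epicatechin, and TNFAIP3 read 1152 and 809.

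Control serum left the members spread around 0 against the untreated culture, with 5 of 9 above 0, a median of 0.031 and a range from -0.36 for RELB to 0.17 for NFKBIB. Of all genes 51.3% lay above 0. Centring each array on its median moved the median of all genes in this comparison from 0.0076 to 0.18 and that of the members to 0.20, so the members kept close to all genes under both scalings. Pycnogenol serum against control serum gave 6 of 9 members above 0 with a median of 0.19, where the median of all genes was 0.0082 and 51.6% lay above 0. Above 0 were NFKBIA at 0.59, RELA at 0.44, RELB at 0.31, NFKBIB at 0.201, TNFAIP3 at 0.19 and NFKB1 at 0.0074, the last at -0.047 with median centring. Below 0 were NFKBIZ at -0.43, REL at -0.19 and NFKBIE at -0.039. Averaging every probe set per gene gave a median of 0.035, and leaving out _x_at and _s_at probe sets gave 0.0074. Both serum comparisons share the control serum array. Against the untreated array pycnogenol serum gave a member median of 0.12, with 5 of 9 above 0.

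The other genes of the pathway were read from 4 lists, of receptors and adaptors, of kinases with the linear ubiquitin complex, of other inhibitors and feedback factors, and of NF-kB target genes. In the serum comparisons the medians of the first 3 lists stayed near 0, with no gene above the filter past 2-fold. Of all compared genes 1.2% were past it for control serum against untreated and 0.536% between the serum arrays, so 0 is near the background. Their medians were 0.047, 0.025 and 0.045 for control serum against untreated and -0.043, -0.044 and -0.050 between the serum arrays, over 12, 15 and 12 genes above the filter. The catalytic kinase gene IKBKB read 1872 untreated, 1217 with control serum and 1064 on the pycnogenol serum array, which puts control serum at -0.62 from untreated. BIRC2, a ubiquitin ligase of the receptor complex, differed by 0.65, MAP3K14, the kinase of the noncanonical branch, by 0.49, and TBK1 by 0.39. TLR3 and TLR4, receptors for microbial products, stood at -0.58 and 0.41. TLR3 read 240 with control serum, under 269, so the size of its difference there and between the serum arrays is uncertain. OTUD7B, a deubiquitinase, was at 0.57, the ubiquitin ligase ITCH at -0.33 and NKIRAS1 at 0.28. TLR4 and ITCH were read from _x_at probe sets, which can bind related transcripts.

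Between the serum arrays TBK1 lay at -0.46, TLR4 at -0.44, TLR3 at 0.38 and IL1RAP, the accessory chain of the interleukin 1 receptor, at -0.22. SHARPIN and RNF31, of the linear ubiquitin complex, stood at 0.29 and 0.28. The RNF31 value, like that of TLR4, came from an _x_at probe set. N4BP1 was at -0.32, NKIRAS2 at -0.28 and CYLD, a deubiquitinase that restrains the pathway, at 0.22. None of the genes of these 3 lists above the filter reached 2-fold with any compound either, where 0.314% to 0.728% of all compared genes did. At such shares 0 is near the background.

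Between the serum arrays most NF-kB target genes read lower with pycnogenol serum, while the median of the subunits and inhibitors lay above 0. Of 19 target genes above the filter 16 lay below 0 with pycnogenol against control serum, with a median of -0.25, where 48.4% of all genes lay below 0. The list was drawn up with earlier results of these data known, so the count only describes these arrays. The count of 16 of 19 was the same under quantile normalization and median centring, where the medians of all genes were 0.0037 and -0.046. The signal of IL1A, an interleukin 1 cytokine, was 889 on the control serum array and 193 on the pycnogenol serum array (-2.20). That 193 lay under 269, so the size of the IL1A difference is uncertain. LIF, a cytokine of the interleukin 6 family, was at -0.71 and IL1B at -0.70. Past 2-fold was 1 of the 19, where 0.314% of all genes were lower by as much. Set against the untreated array instead, pycnogenol serum gave a target median of -0.36. There 8 genes lay above and 11 below 0, where 47.5% of all genes lay below 0. By that reference 4 of the 19 were lower by 2-fold, where 2.2% of all genes differed as much in either direction. The difference between the member median of 0.19 and the target median of -0.25 was not tested, since both come from the same 2 arrays.

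With control serum against untreated the target list had a median of -0.059, with 8 genes above and 11 below 0, and one of 0.11 with median centring, where that of all genes was 0.18. IL1B read 24251 untreated and 7662 with control serum (-1.66), CCL20, a chemokine, 353 and 816 (1.21), and the matrix protease gene MMP9 238 and 443 (0.896). The untreated MMP9 signal lay under 269, so the size of its difference is uncertain. IL1B and CCL20 were past 2-fold, as were 1.2% of all compared genes. With the compounds the target medians were -0.12 for catechin, 0.077 for epicatechin, 0.0039 for taxifolin and -0.11 for resveratrol. The neutrophil chemokine gene CXCL3, which read 1124 untreated and 489 with resveratrol, was the 1 target above the filter past 2-fold among those 4 comparisons, at -1.20. With resveratrol 0.728% of all compared genes were past 2-fold.

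**Figure D4:**
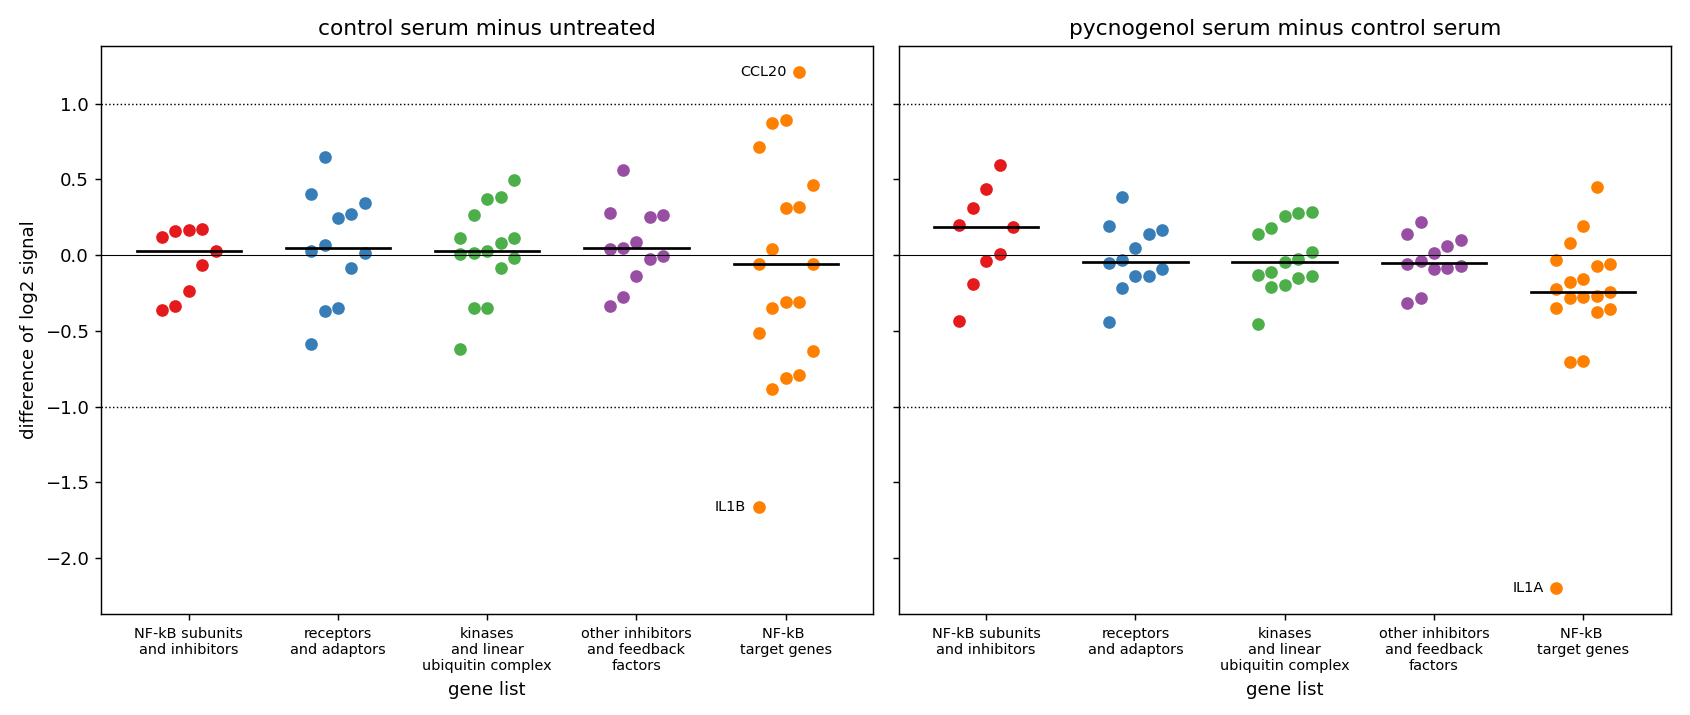
Differences of log2 signal for genes above the filter (points) of the NF-kB subunits and inhibitors and of 4 lists of other pathway genes, for control serum minus untreated (left) and pycnogenol serum minus control serum (right); black bars are medians and dotted lines mark 2-fold. On the right the members have a median of 0.19 and the target genes one of -0.25, with IL1A at -2.20. The IL1A signal with pycnogenol serum, 193, lay under 269, so the size of that difference is uncertain.

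Of the members 4 had a further probe set above the filter, namely REL, RELA, NFKBIZ and TNFAIP3. It had the direction of the brightest one for 3 of 4 genes with catechin, and for 2 of 4 with epicatechin, with taxifolin and with resveratrol. For control serum against untreated, for pycnogenol against control serum and for taxifolin against epicatechin it did so for 3 of 4. The gap between such probe sets of 1 gene on the same arrays reached 0.70 for taxifolin against untreated on NFKBIZ.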

How the data were processed

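HT1080 cultures were profiled on 7 arrays of 54675 probe sets, 1 per group. The deposited values are signal intensities that the authors computed with MAS5, per the submitters' processing notes. The version, detection calls and any genome build are not given in the sources used here. Each array's 2% trimmed mean was checked and was 1000.1.

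Probe sets of 1 gene (41097) were named from the platform annotation, with symbols updated by entrez ID through RefSeq, and 1801 naming several genes and 11777 without an entry were left out. Signals were floored at the 25th percentile (34.9) and log2 transformed. The probe set with the highest mean stood for its gene, and genes at or above the median of those means were compared (9888 of 19775). With 1 array per group nothing was tested, and the number of arrays limits the precision. Python 3.11.15, numpy 2.4.6 and pandas 2.3.3 were used, and the functions were tested on simulated data. Members and lists were chosen with earlier results of these data known. All members were named, then, among genes above the filter, the 3 largest differences of each list in both serum comparisons and any list gene past 2-fold. For a member spanning at least 1, the 3 nearest profiles among genes above the filter were named. Alternatives are given in the closing section.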

Additional observations from a re-analysis of the deposited data

How the results depend on the processing

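No paired analysis was possible because each group held 1 array, and no replicate could be left out. A median was counted as moved when it changed by at least the standard deviation over genes divided by the square root of the number of members, and a count when it changed by over 1.5 times. With median centring the control serum median was 0.20, and averaging every probe set per gene gave medians of -0.14 for epicatechin and 0.035 for pycnogenol against control serum. Without _x_at and _s_at probe sets, where the filter was reset to a signal of 153 and left 5 members, the medians were -0.28 for taxifolin, 0.16 for control serum, 0.0074 for pycnogenol against control serum and -0.077 for taxifolin against epicatechin. The filter at the 75th percentile left 3 members (NFKB1, RELA and NFKBIA), with medians of -0.40 for resveratrol, -0.24 for control serum and 0.44 for pycnogenol against control serum. Set against the average of the 3 remaining compound arrays, the medians were 0.051 for catechin and 0.023 for taxifolin. Without the signal filter NFKB2 was past 2-fold with taxifolin and with pycnogenol against control serum, 1 member each, where 8.85% and 8.47% of all genes were, and at 1.5-fold NFKBIA made 1 member with epicatechin and 1 with pycnogenol against control serum. Members with both serum arrays outside the other 5 numbered 2 with quantile normalization (NFKBIB and NFKBIE), 3 with median centring (also NFKB1), 2 after averaging probe sets, 2 without _x_at and _s_at probe sets and 0 under the stricter filter, beside 28.9%, 32.5%, 26.0%, 27.9% and 32.3% of all genes in the same order. The cause of these changes was not tested beyond the fewer members named. Of 434 single member values under the settings for scaling, floor, filter and probe sets, 19 changed sign, and 1 of them, NFKBIA between the serum arrays, had been past 1.5-fold. The floor and filter settings left the member values as they were, so no sign could change there. Signs changed for 3 of 63 values under quantile normalization and 4 of 63 with median centring. Averaging probe sets changed 11 of 63, although NFKB1, RELB and NFKBIE have 1 probe set each and could not change. Without _x_at and _s_at probe sets 1 of 35 changed. The NFKBIA value with epicatechin kept its sign but moved to -0.083 when probe sets were averaged. No detection calls were at hand, so signals under 269 are not shown to be above background.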
